A study of Rattus norvegicus with 9 samples.

Results

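Genes of cell division were followed in sorted oligodendrocyte progenitor cells of newborn rats, the glial cells that proliferate in the developing brain before they become myelin-forming oligodendrocytes. The set holds 54 listed genes of DNA replication, the cyclins and their kinases, the mitotic kinases, the kinesins and cytokinesis. They were found by gene symbol among the probes of the arrays, and 44 of the 54 were measured, by 58 probes. The 10 genes without a named probe were Cdc6, Cdt1, Mcm3, Pole, Ccne2, Ccnb2, Cdc25c, Cenpe, Tpx2 and Anln. In all, 12165 genes were tested.

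The study sorted progenitor cultures into 3 populations by surface antigens, and each population was hybridised to 3 one-colour arrays. Cells of the O4 population carried the sulfatide antigen O4 and lacked NG2, the proteoglycan encoded by Cspg4. NG2/A2B5 cells carried NG2 and the ganglioside antigen A2B5, and NG2 cells carried NG2 alone. All animals were newborn rats, with no genetic change and no treatment named, and neither their strain nor the number pooled in a culture is given in the sources used here. In the array titles the numerals I, II and III each occur in all 3 populations, and arrays with the same numeral are called set I, set II and set III here. The series describes 3 cultures, and no label says which numeral is which culture. The p-values therefore reflect only how these 9 arrays vary, and part of that may be technical.

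A dividing cell passes from G1 through DNA replication in S phase to G2 and mitosis. D-type and E-type cyclins with their kinases release E2F transcription factors from the retinoblastoma proteins, which turns on the genes of replication. The B-type cyclins, mitotic kinases and spindle genes follow later, largely under MYB and FOXM1 factors at promoters that carry a cell cycle homology region and CCAAT boxes. Oligodendrocyte progenitors divide in response to growth factors such as PDGF and leave the cycle before they mature.

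Values are log2 of the deposited probe intensity, and a difference of 1 on this scale is a doubling. All 396 readings of the members were present, and 2 of them lay under the 25th percentile of the probes on their array. The intensity also depends on the probe, so levels are compared between arrays and not between genes. The array medians lay between 1.05 and 1.07 intensity units. Among markers of the progenitor lineage, 7 of 9 were measured, and none lay under the 25th percentile on all arrays. Their summed intensity ranged over 303 to 488 units on O4 arrays, 332 to 508 on NG2/A2B5 arrays and 359 to 415 on NG2 arrays. Cspg4 itself was 0.30 lower in O4 than in NG2 (SE 0.27), which did not pass the test (limma, Benjamini-Hochberg adjusted p = 0.803), although the sort separated these cells by its protein. Of 13 microglia markers, the complement genes C1qa, C1qb and C1qc lay under the 25th percentile on all 9 arrays and Cx3cr1, Ptprc and Trem2 on 8, while the other 7 were above it on most arrays.

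No member passed the test between any 2 of the 3 populations. None of the 44 members passed the test between O4 and NG2 (limma, adjusted p under 0.05), where 0.00822% of all genes did. At an unadjusted p under 0.05 there were 3 members, against 8.0% of all genes. Their median difference was -0.10, with 28 members below 0, where 48.1% of all genes were, and the median of all genes was 0.02. Between O4 and NG2/A2B5 the test called 0 members, and it called 0.00822% of all genes. No member had an unadjusted p under 0.05 there, where 3.28% of all genes did, and the median difference was 0.04 (all genes 0.02), with 27 members above 0, against 53.2% of all genes. Between NG2/A2B5 and NG2, 0 members and 0.0% of all genes were called, and 0 members and 4.48% of all genes had an unadjusted p under 0.05. The median difference was -0.12, with 11 members above 0, against 48.4% of all genes, whose median was -0.01. The 3 comparisons share arrays, so their values are not independent of each other. The 95% intervals of the members' differences had a median half-width of 0.52, so smaller differences were within the error for most members. The median was 0.84 (largest 1.48) for the 16 genes of G1 and S phase and 0.46 for the 26 of G2 and mitosis. The model held no term for the sets, so variation between sets counts in this error. Fewer dividing cells and less RNA per cell cannot be told apart in such bulk samples.

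**Figure D1:**
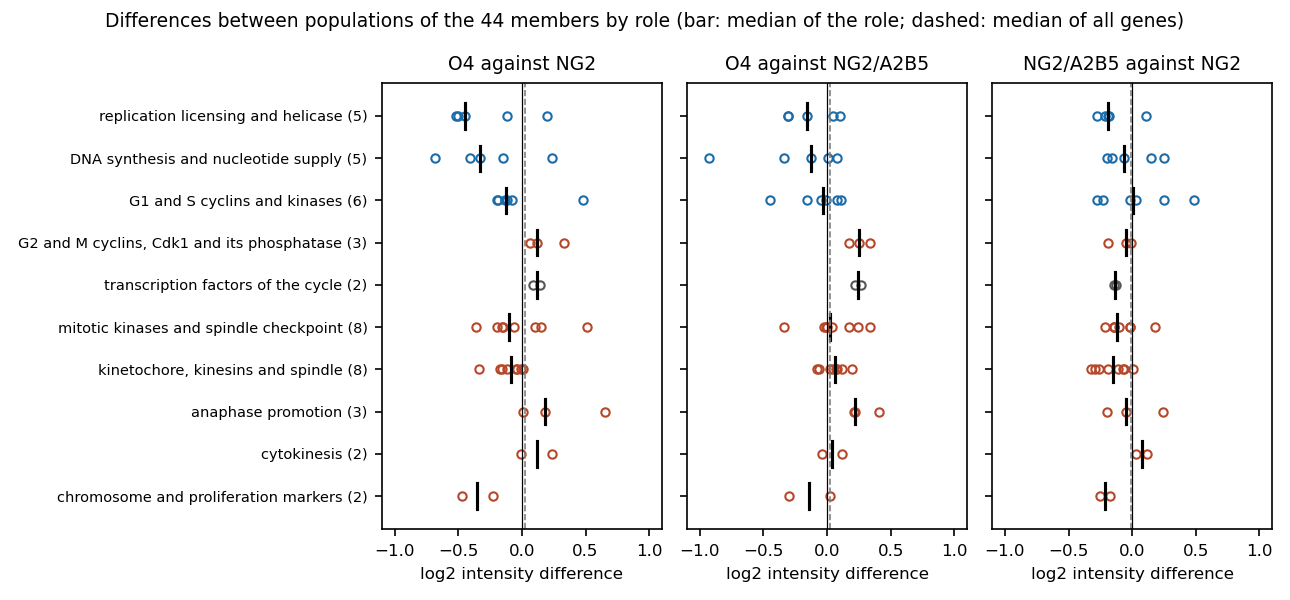
Each circle is 1 of the 44 members, placed by its fitted log2 intensity difference between 2 populations (horizontal axis) and its role (vertical axis, with the number of members). Black bars are the medians of a role and dashed lines the medians of all genes. No member passed the test, and the medians over all members were -0.10, 0.04 and -0.12 from left to right.

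The 3 members with an unadjusted p under 0.05 between O4 and NG2 were Birc5 and Ube2c, which read higher in O4, and Mki67, which read lower. Birc5 encodes survivin, a subunit of the chromosomal passenger complex that corrects spindle attachments. On sets I, II and III it read 7.38, 7.57 and 7.70 in O4, 7.44, 7.22 and 6.98 in NG2/A2B5 cells and 6.93, 7.20 and 6.99 in NG2. The lowest O4 array was above the highest NG2 array, a separation that 7.51% of all genes showed in this direction. The difference of 0.51 (SE 0.17, 1.43-fold) had the smallest p among the members in this comparison, and its limma adjusted p was 0.577. Ube2c, the ubiquitin-conjugating enzyme of the anaphase-promoting complex, read 6.99, 7.38 and 7.57 in O4, 6.82, 6.91 and 6.98 in NG2/A2B5 cells and 6.29, 7.24 and 6.47 in NG2. It was 0.65 higher in O4 than in NG2 (SE 0.27, adjusted p 0.625 in limma), but the NG2 array of set II lay within the range of O4. Its O4 arrays lay above its NG2/A2B5 arrays by 0.01 at the closest, as 5.3% of all genes did in that direction.

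Mki67, which encodes the proliferation antigen Ki-67, went the other way. It read 4.37, 3.92 and 4.21 in O4, 4.51, 4.68 and 4.22 in NG2/A2B5 cells and 4.46, 4.89 and 4.56 in NG2. All 3 O4 arrays were below all 3 NG2 arrays, as for 6.54% of all genes. The difference was -0.47 (SE 0.20), with a limma adjusted p of 0.625. Top2a, the topoisomerase that untangles replicated chromosomes, read 7.61, 7.35 and 7.36 in O4, 7.50, 7.43 and 7.34 in NG2/A2B5 cells and 7.54, 7.80 and 7.68 in NG2. Its NG2/A2B5 arrays lay below its NG2 arrays. Those of Cdc20, the activator of the anaphase-promoting complex, did so only before rounding, since the closest arrays both read 4.41. These were 2 of the 44 members, near the 5.0% of all genes with such a separation. Neither passed the test: the difference was -0.25 for Top2a (SE 0.14) and -0.20 for Cdc20 (SE 0.18), each with a limma adjusted p of 1.

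No replication gene passed the test between populations. Mcm2, a subunit of the helicase loaded at replication origins, read -1.14, -0.44 and -0.40 in O4, -0.45, -0.16 and -0.44 in NG2/A2B5 cells and 0.21, -0.12 and -0.51 in NG2. The O4 and NG2 ranges overlapped, and the difference was -0.52 (SE 0.26, limma adjusted p 0.666). Without the O4 array of set I it was -0.28, and without the NG2 array of set I -0.35. Of the 5 measured helicase subunits 4 were below 0 in this comparison, with a median of -0.45 over all 5, and Mcm7 was at 0.20. Mcm5 went from -0.50 to -0.23 without the NG2 array of set II and to -0.84 without that of set III. Prim1, the primase subunit that starts new strands, read -0.73, 0.04 and -0.29 in O4, 0.07, 0.14 and -0.17 in NG2/A2B5 cells and 0.15, 0.49 and -0.41 in NG2, and these ranges overlapped too. The largest difference in size was that of Tyms, the thymidylate synthase gene, at -0.93 between O4 and NG2/A2B5 (SE 0.64, adjusted p 1 in limma). Its O4 array of set I read -3.17, against -0.67 and -1.12 on the other O4 arrays. Without that array, which lay under the 25th percentile, the difference was -0.17.

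Among the cyclins, Ccnd3 (cyclin D3, a partner of Cdk4 in G1) had the smallest p over the populations. It read 4.22, 4.54 and 4.18 in O4, 4.29, 4.54 and 4.15 in NG2/A2B5 cells and 3.79, 4.21 and 3.52 in NG2. The difference was 0.48 between O4 and NG2 (SE 0.22, limma adjusted p 0.644) and 0.49 between NG2/A2B5 and NG2 (SE 0.22, adjusted p 1), and in each pair the highest NG2 array lay inside the other range. Another Ccnd3 probe gave smaller differences of 0.22 and 0.12. A further one, under the 25th percentile on 6 arrays, gave -0.18 and -0.16. The mitotic cyclin gene Ccnb1 read 5.51, 5.69 and 5.73 in O4, 4.97, 5.60 and 5.34 in NG2/A2B5 cells and 5.0, 5.59 and 5.37 in NG2. O4 had the highest mean, at 5.64 ± 0.12 (SD, n = 3), against 5.30 ± 0.31 in NG2/A2B5 and 5.32 ± 0.30 in NG2, and the ranges overlapped.

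The forkhead factor gene Foxm1, a transcriptional activator of mitotic genes, read 4.20, 4.19 and 3.84 in O4, 3.80, 4.12 and 3.49 in NG2/A2B5 cells and 3.77, 4.20 and 3.83 in NG2. Kif20a, a kinesin needed for cytokinesis, read 4.33, 4.16 and 4.50 in O4, 3.99, 4.40 and 3.99 in NG2/A2B5 cells and 4.45, 4.49 and 4.39 in NG2. Racgap1, a component of the centralspindlin complex at the cleavage furrow, read 6.73, 6.50 and 6.43 in O4, 6.44, 6.57 and 6.29 in NG2/A2B5 cells and 6.29, 6.56 and 6.09 in NG2. In these 3 genes the populations overlapped in each pair. An F test over the 3 populations gave no member an unadjusted p under 0.05. Its smallest was 0.0521, for Birc5, with an adjusted p of 0.931 in limma. Among all genes 5.37% had an unadjusted p under 0.05.

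The members varied more between array sets than between populations. Over the 44 members a median of 42.6% of the variance between arrays lay between sets and 18.7% between populations. The same medians over all genes were 34.2% and 21.2%. The share between sets was the larger for 32 of the 44 members (72.7%), and for 61.1% of all genes.

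In set III, 5 members fell relative to set II, in a model of population and set (limma, adjusted p under 0.05 over all genes): the cyclin genes Ccnd2 and Ccne1, the ribonucleotide reductase gene Rrm2 and the helicase genes Mcm5 and Mcm4. All 5 act in G1 or S phase. None of the members rose. Among all genes 3.55% were called, 1.64% higher and 1.92% lower. With any 1 of the 9 arrays left out, 0 of the 44 members were called, and between 0 and 5 of all genes. The 5 genes then kept differences of -0.69 to -1.61, with limma adjusted p from 0.0559 to 0.172. Of the 44 members 38 read lower in set III, where 56.9% of all genes did, and the median difference was -0.28 (all genes -0.08). After quantile normalization the medians were -0.20 for the members and -0.04 for all genes. In 18 of the 44 members all set III arrays lay below all set II arrays, against 16.0% of all genes. At an unadjusted p under 0.05 there were 14 members, against 23.7% of all genes.

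**Figure D2:**
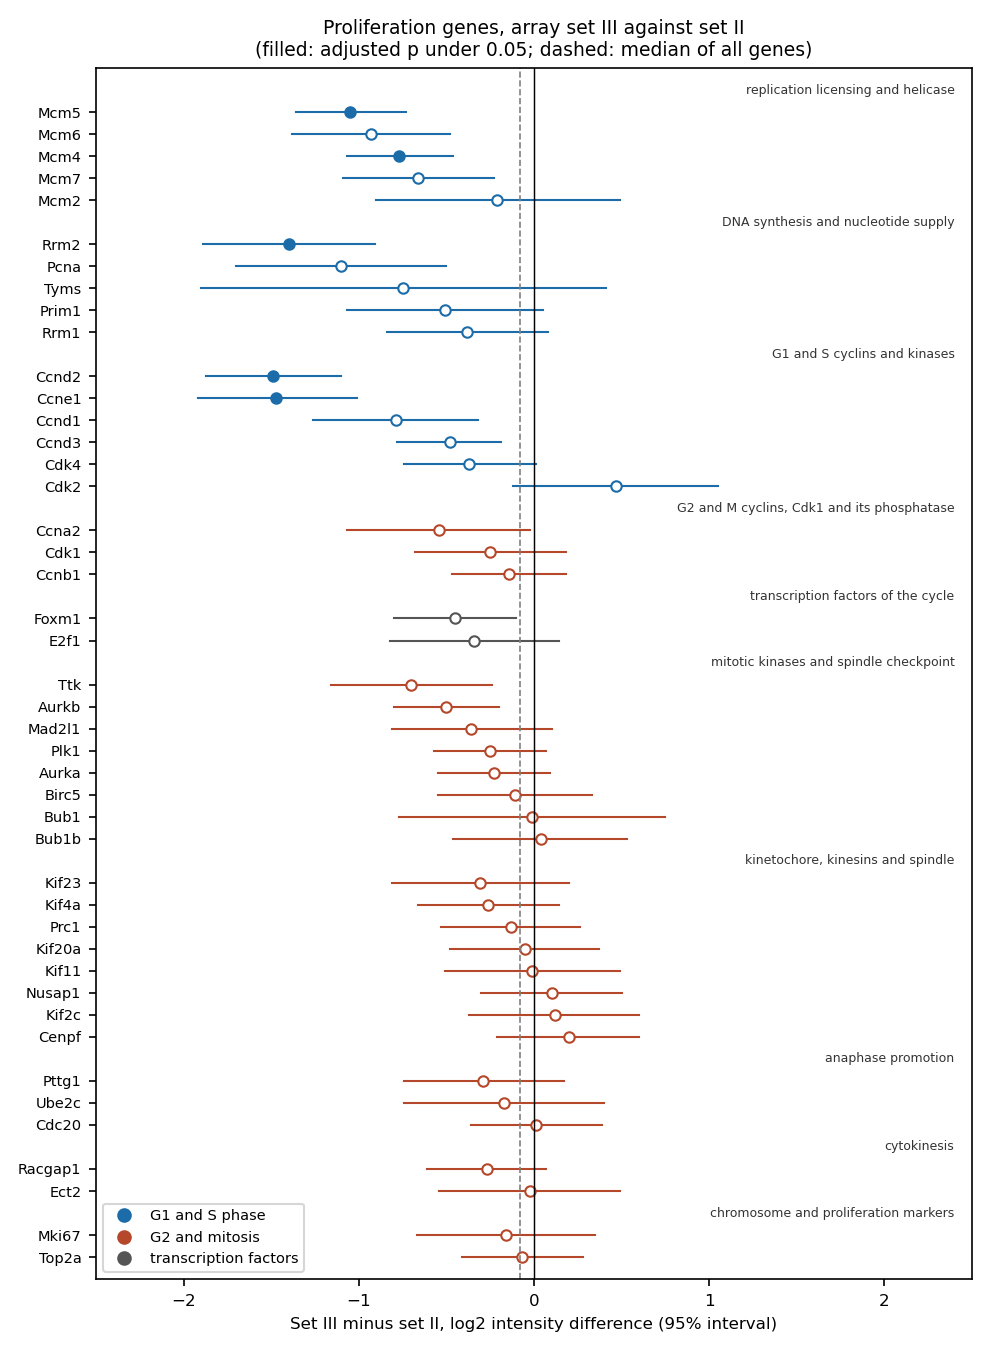
Each point is the fitted log2 intensity difference of 1 of the 44 members between set III and set II, with its 95% interval, grouped by role (headings at the right) and coloured by phase. Filled points passed the test and the dashed line is the median of all genes (-0.08). The filled points are Ccnd2, Ccne1, Rrm2, Mcm5 and Mcm4. Points of the mitotic roles lie nearer to 0 than these, but Ttk (-0.70) comes close to Mcm4 (-0.77). The mitotic points overlap the unfilled points of G1 and S phase.

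Ccnd2 encodes cyclin D2, which activates Cdk4 and Cdk6 in G1. It read 5.66, 6.78 and 5.49 in O4, 5.45, 7.03 and 5.61 in NG2/A2B5 cells and 5.69, 7.11 and 5.36 in NG2. In each population the set II array was the highest by more than 1 log2 unit, while sets I and III overlapped. Ccnd2 was 2.81-fold lower in set III than in set II (log2 difference -1.49, SE 0.15, adjusted p 0.024 in limma). It was 2.59-fold higher in set II than in set I, where the adjusted p was 0.0523. A further Ccnd2 probe gave -2.08 and 1.56 for these comparisons. This was the one member that passed the F test over the 3 sets (adjusted p 0.0448), which 0.674% of all genes passed. At an unadjusted p under 0.05 in the F test there were 13 members, against 21.5% of all genes.

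Ccne1 encodes cyclin E1, which activates Cdk2 at the entry into S phase. It read 2.55, 3.10 and 1.65 in O4, 2.38, 3.28 and 2.10 in NG2/A2B5 cells and 2.33, 3.56 and 1.79 in NG2. The order was set II, then I, then III in every population. The difference of set III from set II was -1.47 (SE 0.18, 2.76-fold, limma adjusted p 0.0276), and another probe of the gene gave -0.82. Ccnd1, the gene of cyclin D1, read 4.17, 5.02 and 4.51 in O4, 4.71, 5.44 and 4.88 in NG2/A2B5 cells and 4.51, 5.54 and 4.23 in NG2. Set II was the highest in each population, and all of its arrays were above all of set III, but the difference of -0.79 (SE 0.19) did not pass the test (adjusted p 0.0871).

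The other genes of this role varied among themselves. Ccnd3 was at -0.48 in set III against set II (SE 0.12, limma adjusted p 0.0907) and the kinase gene Cdk4 at -0.37 (SE 0.15, adjusted p 0.217). Cdk2, the partner of cyclin E, was the one G1 and S phase member above 0, at 0.47 (SE 0.23, adjusted p 0.298 in limma). Its set means were -1.22 ± 0.38 in set I, -1.95 ± 0.13 in set II and -1.48 ± 0.26 in set III (SD, n = 3 each). The Cdk2 probe thus read lowest where those of its cyclin were highest, but its O4 reading of set II lay under the 25th percentile. Without the O4 array of set I, its difference of set II from set I went from -0.73 to -0.43.

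Of the helicase subunits, all 5 read lower in set III than in set II, and 2 passed the test. Mcm5 read 3.99, 4.30 and 3.48 in O4, 4.41, 4.70 and 3.60 in NG2/A2B5 cells and 4.55, 4.98 and 3.76 in NG2. Its set III arrays lay below every other array, and it fell by 1.05 on the log2 scale (SE 0.13, 2.06-fold, limma adjusted p 0.0263). Mcm4 read 2.43, 2.45 and 1.80 in O4, 2.45, 2.71 and 2.01 in NG2/A2B5 cells and 2.84, 3.07 and 2.11 in NG2, again lowest in set III of each population. It was 1.70-fold lower (log2 difference -0.77, SE 0.12, limma adjusted p 0.0445). The differences of Mcm6 (-0.93, SE 0.18) and Mcm7 (-0.66, SE 0.17) had adjusted p of 0.0582 and 0.101, and Mcm2 was at -0.21 (SE 0.28). For Mcm6 a dimmer probe gave 0.16, so its probes disagreed. Against set I, the set III differences were -0.70 for Mcm5, -0.64 for Mcm6, -0.60 for Mcm4 and -0.52 for Mcm7, with adjusted p between 0.236 and 0.339 in limma. In these 4 genes all set III arrays lay below all set I arrays, which was so for 8.18% of all genes.

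Among the genes of nucleotide supply and DNA synthesis, Rrm2 passed the test. It encodes the regulatory subunit of ribonucleotide reductase, which makes deoxynucleotides, and it read 1.46, 2.58 and 1.41 in O4, 1.79, 2.42 and 1.22 in NG2/A2B5 cells and 1.89, 2.93 and 1.09 in NG2. Set II was the highest and set III the lowest in each population. The difference between them was -1.40 (SE 0.20, 2.64-fold, limma adjusted p 0.0351). Its partner subunit gene Rrm1 was at -0.38 (SE 0.18, adjusted p 0.283).

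Pcna, the gene of the sliding clamp of DNA polymerases, read 2.96, 3.52 and 2.70 in O4, 3.01, 3.32 and 2.61 in NG2/A2B5 cells and 2.59, 3.83 and 2.05 in NG2. Here too the set order was II, I and III in every population, and sets II and III did not overlap. Its difference of -1.10 (SE 0.24, 2.15-fold) had an adjusted p of 0.0735 in limma. Tyms was at -0.75 (SE 0.46) and Prim1 at -0.51 (SE 0.22), and neither passed the test. Without the NG2 array of set III, Tyms was at -0.46 and Prim1 at -0.31. Tyms was at -1.18 without the O4 array of set III.

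**Figure D3:**
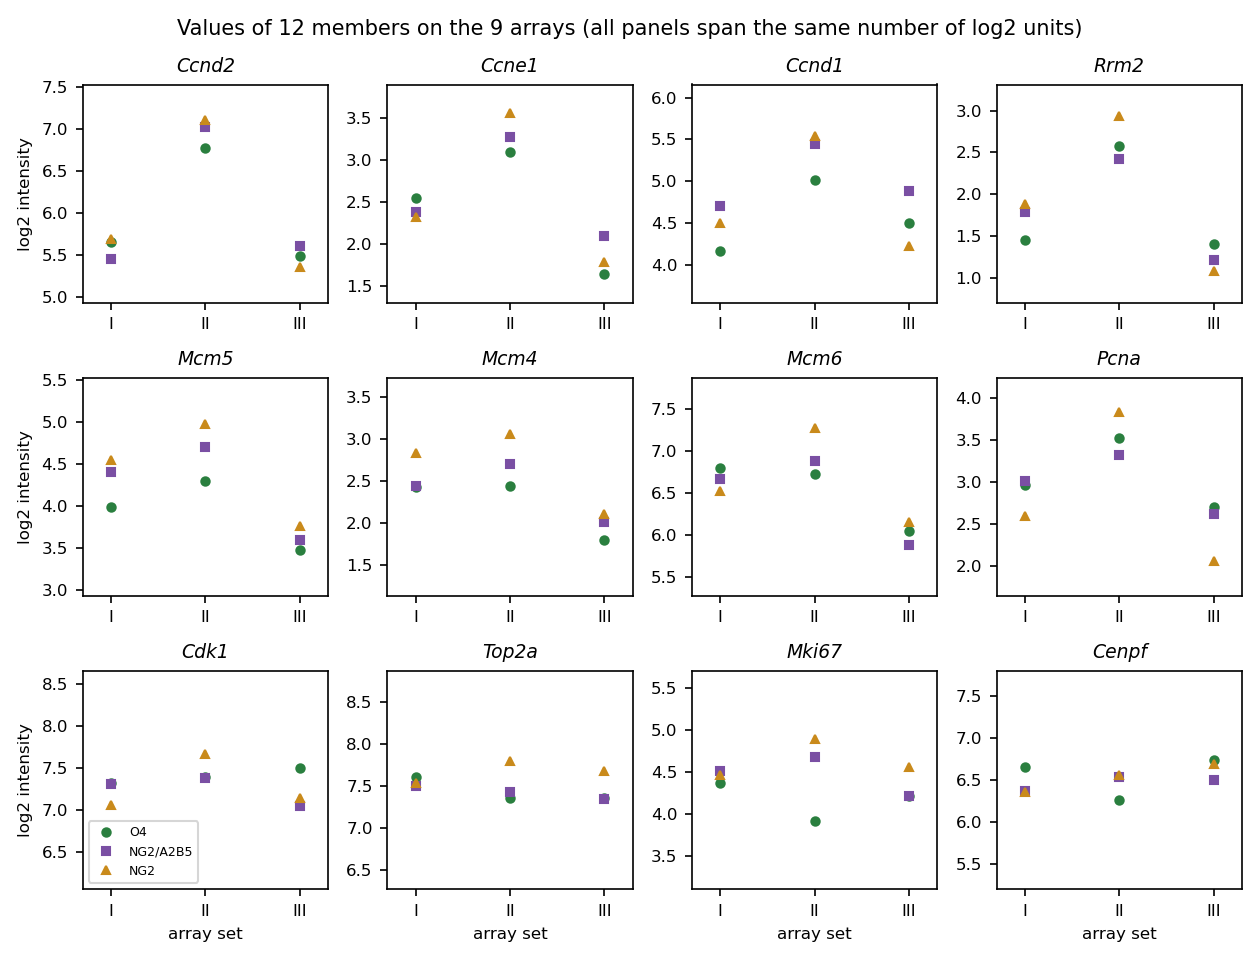
Log2 intensity (vertical axes, all spanning the same number of log2 units) of members on the 9 arrays, by array set (horizontal axes) and population (symbols). Ccnd2, Ccne1, Ccnd1, Rrm2, Mcm5 and Pcna read highest in set II of each population, while Cdk1, Top2a, Mki67 and Cenpf show no common order of the sets.

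None of the 26 genes of G2 and mitosis was called between sets III and II, a comparison in which 3.55% of all genes were, so that few calls would be reached among 26 genes at the background share. Cdk1, the kinase that drives entry into mitosis, read 7.33, 7.40 and 7.50 in O4, 7.31, 7.38 and 7.05 in NG2/A2B5 cells and 7.06, 7.67 and 7.15 in NG2. Set III was the highest in O4 and the lowest in NG2/A2B5. Its difference between sets III and II was -0.25 (SE 0.17, limma adjusted p 0.425), and its other probe gave -0.28. Of the cyclin genes of this phase, Ccna2 was at -0.54 (SE 0.21, adjusted p 0.200 in limma) and Ccnb1 at -0.14 (SE 0.13, adjusted p 0.550). Without the NG2 array of set II the value of Ccna2 was -0.31. Of the transcription factor genes, Foxm1 was at -0.45 (SE 0.14, adjusted p 0.137) and E2f1, an activator of replication genes, at -0.34 (SE 0.19, adjusted p 0.345).

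Of the 8 genes of mitotic kinases and the spindle checkpoint, Ttk and Aurkb had the most negative differences of set III from set II. Aurkb, the kinase of the chromosomal passenger complex, read 4.19, 4.24 and 3.73 in O4, 3.94, 4.26 and 3.84 in NG2/A2B5 cells and 4.14, 4.39 and 3.82 in NG2. All set III arrays were below all others, and the difference from set II was -0.50 (SE 0.12, limma adjusted p 0.0881). Ttk, the kinase that starts the checkpoint signal, was at -0.70 (SE 0.18, adjusted p 0.102). The differences of the other 6, Mad2l1, Plk1, Aurka, Birc5, Bub1 and Bub1b, lay between -0.36 and 0.04.

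In the genes of the kinetochore and spindle the median difference of set III from set II was -0.03, with 3 of 8 above 0. Kif2c, a kinesin that takes microtubules apart, read -1.06, -0.62 and -1.04 in O4, -1.18, -1.04 and -0.65 in NG2/A2B5 cells and -1.18, -0.94 and -0.55 in NG2. Set I was the lowest in each population, narrowly so in O4, and sets II and III had no common order. Cenpf, a kinetochore protein gene, was the highest of this role at 0.20 (SE 0.16, limma adjusted p 0.508). Kif2c was at 0.12, and the remaining 6 members of this role ranged from -0.31 (Kif23) to 0.10 (Nusap1). In anaphase promotion the differences were -0.29 for Pttg1 (securin), -0.17 for Ube2c and 0.01 for Cdc20. The cytokinesis genes Racgap1 and Ect2 were at -0.27 and -0.02. For the standard markers Mki67 and Top2a the differences were -0.16 (SE 0.20) and -0.07 (SE 0.14), with 95% intervals of -0.67 to 0.35 and -0.41 to 0.28, so that changes of the size seen in Ccnd2 or Rrm2 lay outside both intervals.

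The set difference was also read within each population. The members were divided for description into 16 genes of G1 and S phase, 26 of G2 and mitosis and the 2 transcription factors. The division was made after the values were seen, so no test was made between the classes. The median difference of the G1 and S phase genes between sets III and II was -0.52 in O4 cells, -0.65 in NG2/A2B5 cells and -0.98 in NG2 cells. For the genes of G2 and mitosis it was 0.05, -0.32 and -0.22. The medians over all genes were -0.01, -0.04 and -0.18, so the values in NG2 cells include a shift of the whole array. Lower in set III than in set II were 13, 15 and 15 of the 16 genes of G1 and S phase in O4, NG2/A2B5 and NG2 cells. Of the 26 genes of G2 and mitosis 11, 23 and 20 were lower, so that most of them also read lower in NG2/A2B5 and NG2 cells. The shares of all genes were 50.4%, 53.6% and 61.9%. Lower in all 3 populations were 13 of the 16 and 9 of the 26, against 27.6% of all genes. Whether the set difference itself differed between the populations was not tested, since each has 1 array per set. The median share of the variance between sets was 73.3% in the G1 and S phase genes and 33.8% in the genes of G2 and mitosis (34.2% over all genes).

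**Figure D4:**
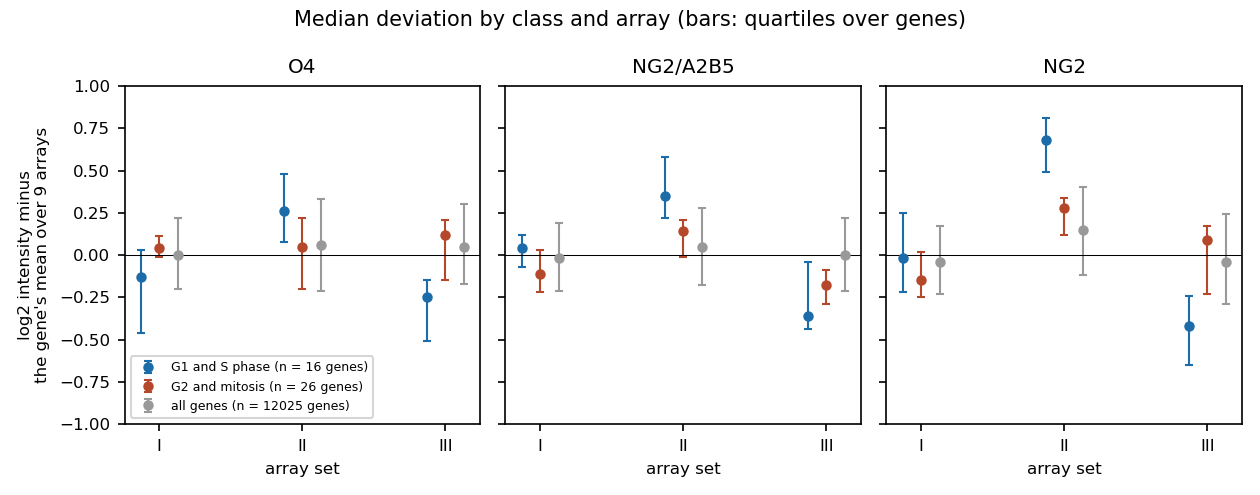
Median deviation of the log2 intensity from each gene's mean over the 9 arrays (vertical axis), by array set (horizontal axis), in each population, for the 16 genes of G1 and S phase, the 26 of G2 and mitosis and all genes with a value on every array. Bars are the quartiles over genes. The G1 and S phase medians lie at 0.26, 0.35 and 0.68 in set II and at -0.25, -0.36 and -0.42 in set III.

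Set II against set I gave the opposite direction. The members' median was 0.23 (all genes 0.10), or 0.13 and 0.02 after quantile normalization. Above 0 were 39 of 44 members and 61.5% of all genes. No member was called (limma), where 0.23% of all genes were, and 13 members had an unadjusted p under 0.05, against 17.2% of all genes. In 14 of the 44 members all set II arrays were above all set I arrays, against 14.8% of all genes. The values by member were 1.37 for Ccnd2 (SE 0.15), 1.38 for Tyms (SE 0.46), 0.93 for Rrm2 (SE 0.20), 0.89 for Ccne1 (SE 0.18), 0.87 for Ccnd1 (SE 0.19) and 0.70 for Pcna (SE 0.24). Without the low O4 array of set I the value of Tyms was 0.75, and without the NG2 array of set II that of Pcna was 0.40. The helicase genes lay between 0.14 and 0.34. Set III against set I gave a median of -0.08 (all genes 0.02), with 0 members called and 0.0% of all genes, and 6 members at an unadjusted p under 0.05, against 12.6%. Each set enters 2 of these comparisons, so they share arrays.

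Most members measured by more than 1 probe gave like signs. Besides the probes used, 14 others were on the arrays for 13 members, and 12 of them had the sign of the used probe in set III against set II. Among these 12, the Rrm1 probe and 1 of the Ccnd3 probes lay under the 25th percentile on 6 of the 9 arrays each. The exceptions were those of Mcm6 and of Ect2, whose other probe (0.39) lay under the 25th percentile on 8 of the 9 arrays. For Mcm5 the second probe gave -0.80 and for Foxm1 -0.68. The probes of Cenpf shared their sign but not their size, with 0.20 for the one used and 1.18 for the other.

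Some marker genes of other cells also differed between the sets. The summed intensity of 7 astrocyte markers was 65.3 to 101 units in set II and 112 to 160 in set III. Of these, Gfap (1.72, SE 0.19, adjusted p 0.024 in limma) and Aldoc (1.27, SE 0.16, adjusted p 0.0284) rose, where 1.64% of all genes were called higher. Gfap lay under the 25th percentile on all 3 set II arrays, so the size of its difference is uncertain. Below 0 were 4 of the 7, and the largest difference of the list was that of Gja1, at -2.06 (SE 0.43, adjusted p 0.0682 in limma), which did not pass the test. The 3 measured neuron markers summed to 6.09 to 10.7 units in set II and 20.1 to 21.7 in set III, with Snap25 under the 25th percentile on all arrays. The neuron markers Dcx, Stmn2 and Snap25 were at 1.43, 1.01 and -0.85, and none was called. Stmn2 lay under the 25th percentile on all 3 arrays of set II and all 3 of set III. Its difference (SE 1.09) thus compares dim readings only. Dcx lay under the 25th percentile on no array, so the sums of these 3 markers in both sets are mostly Dcx. The 7 progenitor markers summed to 303 to 361 and 413 to 508 units, and none of them was called. The ranges of the 13 microglia markers, 12.5 to 17.7 and 12 to 13.9 units, overlapped, as did those of 10 markers of endothelium, pericytes and fibroblasts, 28.9 to 35.7 and 25.1 to 29.6. Of the latter, Rgs5 and Lum stayed under the 25th percentile on all arrays. The part of these cells in the set differences of the members was not tested. Which culture, sort or hybridisation the sets stand for cannot be told apart from these labels.

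Other cell cycle genes, from a list of 64 of which 47 were measured, ran in the same direction in set III against set II. Below 0 were 44 of the 47, against 56.9% of all genes, and the median was -0.35 (all genes -0.08). The test called 2, both lower, which is near the 3.55% of all genes called in either direction. In 20 of the 47 all set III arrays lay below all set II arrays, against 16.0% of all genes. Mitotic genes of this list, such as Incenp, Tacc3, Hmmr and Pbk, also read lower in set III than in set II of every population. The lower readings were thus not confined to genes of G1 and S phase. Orc6, a subunit of the origin recognition complex, read 5.28, 5.72 and 4.87 in O4, 5.46, 5.85 and 4.83 in NG2/A2B5 cells and 5.24, 6.18 and 5.09 in NG2. Set III was the lowest in each population, and the difference from set II was -0.98 (SE 0.15, limma adjusted p 0.0429). Uhrf1, which keeps DNA methylation through replication, was at -0.93 (SE 0.16, adjusted p 0.0468). With any 1 of the 9 arrays left out, neither was called. Dut, the enzyme gene that removes dUTP, was at -1.11 (SE 0.21, adjusted p 0.0577). The highest differences were 0.51 for Nek2, 0.20 for Brca1 of DNA repair and 0.06 for the condensin gene Ncapd2, none past the test. Nek2 is a centrosome kinase gene, and its probe lay under the 25th percentile on all 9 arrays. Between the populations 0 of the 47 were called in any pair, and their medians were -0.04 (O4 against NG2), 0.04 (O4 against NG2/A2B5) and -0.11 (NG2/A2B5 against NG2). At an unadjusted p under 0.05 there were 5, 1 and 2 of the 47, near the shares of all genes (8.0%, 3.28% and 4.48%).

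The promoters of the members were searched for the letters of the elements named above, on both strands, in the 250 bases before the gene start given by RefSeq (assembly GRCr8). A window was given for 41 of the 54 members and for 27457 genes in all. The E2F letters searched were TTTGGCG, the related form TTTCGCG and also the form TTTCCCG. They stood in 7 of the 41 windows (17.1%) and in 5.2% of all windows. These were 5 of 15 windows of G1 and S phase genes and 2 of 26 of G2 and mitosis genes. The letters of the cell cycle homology region (TTTGAA or its other common form TTCGAA) stood in 39.0% of the members' windows and 18.5% of all, and in 13 of the 26 of G2 and mitosis. CCAAT stood in 70.7% and 36.1%. A match describes letters and does not show that a factor binds there.

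The last 150 bases before the start are shown for 3 helicase genes, whose set III differences were -1.05, -0.93 and -0.66, and for 3 mitotic genes at 0.01, -0.13 and -0.31. They were chosen after the values were seen. Each is written 5′ to 3′ on the strand of the gene, and capitals mark the letters of the 3 elements on either strand, so that CCAAT can appear as ATTGG. Where 2 matches overlap or touch, the capitals run together.
Mcm5, chr19:13488663-13488812, plus strand: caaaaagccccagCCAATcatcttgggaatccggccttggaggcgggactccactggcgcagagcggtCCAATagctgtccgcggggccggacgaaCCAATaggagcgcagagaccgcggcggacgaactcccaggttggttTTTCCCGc
Mcm6, chr13:42404353-42404502, minus strand: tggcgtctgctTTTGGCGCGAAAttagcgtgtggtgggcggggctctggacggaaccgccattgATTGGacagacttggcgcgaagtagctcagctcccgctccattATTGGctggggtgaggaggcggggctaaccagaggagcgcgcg
Mcm7, chr12:22163179-22163328, minus strand: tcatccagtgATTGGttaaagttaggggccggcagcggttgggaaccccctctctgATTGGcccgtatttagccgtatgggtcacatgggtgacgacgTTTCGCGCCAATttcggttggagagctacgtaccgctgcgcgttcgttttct
Cdc20, chr5:137255800-137255949, minus strand: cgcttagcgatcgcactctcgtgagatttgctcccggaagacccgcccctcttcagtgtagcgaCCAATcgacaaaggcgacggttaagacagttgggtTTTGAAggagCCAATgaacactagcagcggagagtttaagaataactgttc
Prc1, chr1:143659331-143659480, plus strand: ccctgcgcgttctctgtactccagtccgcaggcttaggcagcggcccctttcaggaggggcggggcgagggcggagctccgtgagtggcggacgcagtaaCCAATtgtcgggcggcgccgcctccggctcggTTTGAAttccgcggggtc
Kif23, chr8:71320585-71320734, minus strand: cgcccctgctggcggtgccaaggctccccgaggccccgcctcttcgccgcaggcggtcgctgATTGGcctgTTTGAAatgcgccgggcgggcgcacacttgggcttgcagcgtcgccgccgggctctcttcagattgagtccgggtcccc

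The 3 helicase stretches each hold E2F letters, which begin 8 bases before the start in Mcm5, 139 in Mcm6 and 52 in Mcm7, where they are directly followed by CCAAT. In the mitotic stretches the homology region letters begin 51 bases before the start in Cdc20, 18 in Prc1 and 79 in Kif23, each with at least 1 CCAAT near it. Prc1 encodes the protein that bundles microtubules at the spindle midzone, and Kif23 the kinesin of the centralspindlin complex. The 7 measured members with E2F letters, Mcm2, Mcm5, Mcm6, Mcm7, Tyms, Cdk1 and Birc5, had a median set III difference of -0.66 and a range of -1.05 to -0.11. The 27 measured members without them had a median of -0.16, and their range of -1.47 to 0.47 included Ccne1 and Pcna at its lower end. Members below -1 thus stood in both groups. Of the 7 with E2F letters 5 are genes of G1 and S phase, a class with a median of -0.76. The letters and the class therefore cannot be told apart here. For the homology region letters the medians were -0.16 with and -0.26 without them, and for CCAAT -0.21 and -0.29. Ccnd2, Ccnd1, Mcm4 and Rrm2 are named here without a window.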

How the data were processed

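Each of the 9 samples is 1 one-colour array. Per the labels' protocols, total RNA was amplified in 2 rounds of in vitro transcription, labelled with biotin and normalized with spiked controls. The deposited values are probe intensity on a linear scale, as made by the authors. For the scanner, the software and further normalization, nothing is stated in these sources. Values coded -9999 were treated as missing, and values at or below 0 were set to the array's smallest positive value before log2. No further normalization was applied. Of 35129 probes, 16865 carry 1 gene symbol, 165 several and 18099 none, and only the first kind was used. The identifiers of 16836 matched the RefSeq table (GRCr8). A gene's value is its probe with the highest mean.

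Populations were compared with limma 3.58.1 in R 4.3.3 over all 9 arrays without a block, and sets in an additive model with population, two-sided, with Benjamini-Hochberg adjustment over all genes. The prior had 1.76 and 1.55 degrees of freedom. Scripts were tested on simulated data. The members, lists and comparisons were chosen with earlier results of these data known. Values on every array are given for called members, for the smallest p over populations and over sets in each role, and for Mki67, Top2a, Pcna, Cdk1 and Ccnd1, 21 genes in all. Other cell cycle genes and inhibitors are named by the smallest p in a comparison, and other members as the text needs them. Alternatives covered normalization, filter, floor, probes, variance estimate, block, covariate, samples and each array left out. The number of arrays limits the precision.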

Additional observations from a re-analysis of the deposited data

How the results depend on the processing

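With 3 arrays per group, 0 members passed the test between any 2 populations in all alternatives run, which included quantile normalization, a floor, a filter, every probe, only the 6 arrays compared and each array left out. The members' median differences between populations stayed within the replicate spread, but leaving out 1 array turned the small sign: O4 against NG2 spanned -0.14 to 0.04 (0.04 without NG2 of set II), O4 against NG2/A2B5 -0.04 to 0.16 (-0.04 without NG2/A2B5 of set III), and NG2/A2B5 against NG2 -0.21 to 0.06 (0.06 without NG2 of set II, 0.01 without NG2/A2B5 of set III).

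For set III against set II the number of members called depended on the setting. It was 5 in the main setting, 10 with dim genes left out, 12 with a floor at the 25th percentile, 13 with trend and robust variance estimates, 2 with the mean of a gene's probes and 0 with every probe tested, where 0 of 35000 probes passed. All calls in these settings were lower in set III. With 1 array left out it ranged from 0 to 0. For set II against set I, where the main count was 0, the counts were 4 without dim genes, 4 with the floor, 6 with trend and robust estimates and 1 without population in the model. For set III against set I trend and robust estimates called 3. Except for every probe tested, the numbers of all genes called in these settings are not given here. The counts therefore cannot be set against a background, and they are not read as particular to the members. Median differences kept their sign for II against I and III against II in all alternatives, and III against I ranged from -0.14 to 0.00 with 1 array left out. Over the 10 called differences of single genes (members, other cell cycle genes and inhibitors), 60 of 80 values under other settings kept the call, 20 did not, and 0 turned direction. With 1 array left out, 90 of 90 kept the direction and lost the call.

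The replicate block left 0 members called in each pair of populations, as a fixed effect, as a random effect (correlation 0.274) and with trend and robust estimates. Same-numeral arrays of different populations had correlations of 0.04 to 0.14 in their deviations from the population means, over 0.1 in 2 of 9 pairs, against -0.11 to 0.01 for other pairs. In 18 of 18 combinations an array correlated best with its own numeral. The 18 combinations use each of the 9 same-numeral pairs from both sides, so they are not independent. Deviations from a mean also cancel within a population, so a positive value for the own numeral in part forces lower values for other pairs. The labels do not say what the numerals share.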

Other observations

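Of 11 cell cycle inhibitor genes 9 were measured. Between sets III and II 2 of them were called, Cdkn1a and Rbl1, both lower, where 3.55% of all genes were called. Between sets II and I Cdkn1a was called higher, where 0.23% of all genes were called. Cdkn1a encodes p21, an inhibitor of cyclin-dependent kinases and a target of p53. It read 7.0, 8.49 and 6.97 in O4, 6.64, 7.94 and 6.39 in NG2/A2B5 cells and 6.97, 8.51 and 6.52 in NG2 (sets I, II and III). Like Ccnd2 it was highest in set II of every population. It rose by 1.44 from set I to set II (SE 0.14, limma adjusted p 0.0454) and fell by 1.69 from set II to set III (SE 0.14, adjusted p 0.0216). Rbl1, the gene of the pocket protein p107, which binds E2F factors, read -0.87, -0.92 and -2.25 in O4, -0.99, -0.42 and -1.68 in NG2/A2B5 cells and -0.68, -0.32 and -2.32 in NG2. It was lowest in set III throughout, and fell by 1.53 against set II (SE 0.23, limma adjusted p 0.0384). Its readings in O4 and NG2 of set III lay under the 25th percentile of the probes, so the size of that difference is uncertain. With any 1 of the 9 arrays left out, none of these 3 calls held.

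Cdkn1c, the gene of the inhibitor p57, read 4.09, 2.84 and 4.51 in O4, 4.26, 2.38 and 3.70 in NG2/A2B5 cells and 4.35, 3.19 and 4.01 in NG2, lowest in set II of each population. Its differences of -1.44 (set II against set I, limma adjusted p 0.0969) and 1.27 (set III against set II, adjusted p 0.0573) did not pass the test. The anti-proliferative gene Btg1 was 0.56 higher in set III than in set II (SE 0.16, limma adjusted p 0.111). The differences of Cdkn2c and Rb1 in that comparison were 0.05 and 0.17. Between the populations 0 of the 9 inhibitor genes were called in any pair, and 0, 1 and 2 of them had an unadjusted p under 0.05 (O4 against NG2, O4 against NG2/A2B5, NG2/A2B5 against NG2). Among all genes 0.00822%, 0.00822% and 0.0% were called, and 8.0%, 3.28% and 4.48% had an unadjusted p under 0.05.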
